A study of Danio rerio with 15 samples.

Results

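The genes described here belong to the interferon response and were measured in ventricles of adult zebrafish: isg15, dhx58, stat2, irf7, irf9, mxa, rsad2 and tap2a. Members were taken from a list of 10 genes by symbol, as the transcript cluster (the array's unit of about 1 gene) that carries the symbol alone and has the highest mean over all arrays. Of the 10, 8 had such a cluster among the 19260 genes with exactly 1 symbol. The other 2 are not analysed here. The list was chosen with earlier results of these data known, so setting its counts beside those of all genes is no independent test.

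The 15 arrays held 5 groups of 3, each array with RNA of 3 pooled ventricles. The groups were fish at the end of 5 weeks of phenylhydrazine, fish 2, 5 and 9 days after treatment ended, and control fish. Phenylhydrazine, which makes fish anaemic by breaking down red blood cells, was given as a bath of 30 min every 3 days. Its concentration was 1.25 µg/mL for the opening week and was raised to 2.5 µg/mL after that, and the control baths had none. The labels name no strain, age or genotype and give control fish no sampling day, so the recovery time and the sampling day cannot be told apart.

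Interferons are secreted proteins that cells release when they sense foreign or misplaced nucleic acid. They bind cell surface receptors whose Janus kinases phosphorylate STAT proteins. A complex that holds STAT2 and IRF9 then binds the promoters of interferon-stimulated genes, and IRF7 amplifies the production of interferon itself. The products block viral replication, modify proteins or load peptides for display to T cells, and in the heart cardiomyocytes, fibroblasts, endothelium and macrophages can all respond. These roles were worked out chiefly in human and mouse cells, and the zebrafish genes are described by them.

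Values are log2 expression, and array medians lay between 4.022 and 4.095. The marker genes of heart muscle were high on every array, with a mean of 7 cardiomyocyte genes between 12.4 and 12.7. Differences are on the log2 scale and are given ± the standard error that limma estimated, for groups of n = 3 arrays. The words rose and fell are used of genes whose p-value, adjusted over all 19260 genes, was under 0.05. The number of arrays limits the precision: the median standard error over all genes was 0.143. The labels call the pools biological replicates.

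Members of the interferon response rose at each of the 4 times after phenylhydrazine, in the largest number 2 days after the end of treatment. By then 7 of 8 members had risen and 0 had fallen, where 11.8% of all genes were called, 7.62% upward and 4.15% downward. Their median difference was 0.91, against 0.01 for all genes. All 3 arrays at 2 days lay above all 3 control arrays for 8 of 8 members, a separation that 16% of all genes showed. In pooled tissue, fewer cells of a type and less RNA per cell cannot be told apart, so a rise may stand for either more cells or more RNA per cell.

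Directly after the treatment, 4 members had risen (isg15, dhx58, irf9 and tap2a) and stat2 had fallen. At that time 24.2% of all genes were called, 14.6% upward and 9.6% downward. The members' median difference was 0.53, against 0.01 for all genes. All 3 arrays lay above all 3 control arrays for 4 members, as they did for 21.2% of all genes. At 5 days only isg15 and dhx58 passed the threshold, where 6.37% of all genes were called (3.9% upward and 2.47% downward), and the median was 0.45 against 0.02 for all genes. Without control array 1, 5 day array 1 or 5 day array 2, 1 member was called at 5 days. At 9 days 4 members had risen (isg15, dhx58, irf9 and tap2a), where 7.54% of all genes were called (4.24% upward and 3.3% downward), and the median was 0.63 against 0.01. All 3 arrays lay above all 3 control arrays for 5 members at 5 days and 6 members at 9 days, where 12.1% and 13.4% of all genes showed this. The 4 comparisons share the control arrays and are given side by side for that reason. Over the 4 times together, 7 of 8 members differed from control by limma's moderated F test, the exception being mxa (adjusted p = 0.145), and 26.9% of all genes passed that test.

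**Figure D1:**
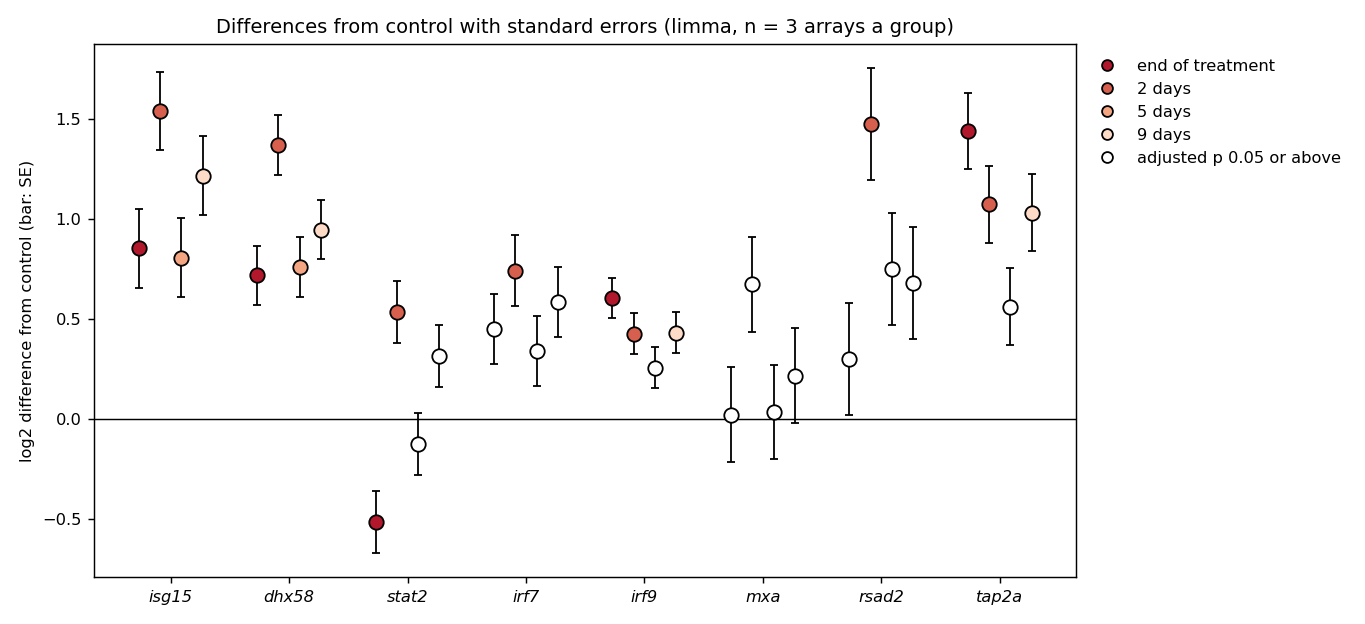
Log2 difference from control (vertical axis) for the 8 measured interferon response genes, with 4 points a gene in order of time and bars for limma's standard error (n = 3 arrays a group). Filled points passed the threshold: 7 genes did at 2 days, and stat2 lies below 0 at the end of treatment and above it at 2 days.

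Among the transcription factors, stat2 was called in both directions. STAT2 is a signalling subunit of the complex that drives interferon-stimulated genes. Its log2 values were 9.00, 8.79 and 8.89 at the end of treatment, 10.38, 9.89 and 9.54 at 2 days, 9.25, 9.45 and 9.14 at 5 days, and 9.65, 9.91 and 9.60 at 9 days, against 9.47, 9.28 and 9.46 in control. The end of treatment arrays were the lowest of all 15, and the arrays at 2 and at 9 days lay above every control array. The difference from control was -0.51 ± 0.16 at the end of treatment (adjusted p = 0.0224) and 0.53 ± 0.16 at 2 days (adjusted p = 0.0343), with -0.12 ± 0.16 at 5 days and 0.32 ± 0.16 at 9 days, which did not pass.

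Both stat2 calls against control were lost when any 1 of several arrays was left out, though neither difference changed sign. The one at the end of treatment was lost without control array 1 (adjusted p = 0.0729), control array 3 (0.0703), end of treatment array 2 (0.0836) or end of treatment array 3 (0.0554), and over all 75212 clusters (0.0736). The one at 2 days was lost without control array 1 (0.0694), control array 2 (0.115), control array 3 (0.0642), 2 day array 2 (0.0696) or 2 day array 1, which also lowered the difference to 0.309 (0.155). It was lost as well without a variance trend (0.064), over all clusters (0.114) and on only the 6 arrays compared (0.0846). The difference between the 2 times was larger than either: 2 days exceeded the end of treatment by 1.05 ± 0.16 (adjusted p = 0.000416), and this call held without any single array.

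The gene irf9, whose product gives that complex its DNA contact, was highest at the end of treatment. Its values were 7.31, 7.61 and 7.58 at the end of treatment, 7.33, 7.33 and 7.31 at 2 days, 7.06, 7.04 and 7.36 at 5 days, and 7.34, 7.31 and 7.33 at 9 days, against 6.96, 6.82 and 6.91 in control. Every treated array lay above every control array, while the groups of treated fish overlapped one another in order of their means. The differences from control were 0.605 ± 0.102 at the end of treatment (adjusted p = 0.000297), 0.43 ± 0.10 at 2 days (adjusted p = 0.011) and 0.43 ± 0.10 at 9 days (adjusted p = 0.0164). At 5 days the difference of 0.26 ± 0.10 did not pass (adjusted p = 0.16). The call at 9 days was lost without control array 2 (adjusted p = 0.0649) or 9 day array 3 (0.054), and over all clusters (0.0523).

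For irf7, the interferon regulatory factor that sustains interferon production, the values were 6.66, 6.84 and 7.26 at the end of treatment, 6.96, 7.48 and 7.19 at 2 days, 6.63, 6.86 and 6.93 at 5 days, and 7.32, 7.02 and 6.81 at 9 days, against 6.40, 6.73 and 6.27 in control. Ranges at 2 and at 9 days were clear of the control range, and those at the other times overlapped it through control array 2. The gene rose by 0.74 ± 0.18 at 2 days (adjusted p = 0.0106), a call lost without control array 3 (0.0536) or 2 day array 2 (0.0604). The other differences did not pass, at 0.45 ± 0.18 at the end of treatment (adjusted p = 0.0763), 0.34 ± 0.18 at 5 days and 0.585 ± 0.176 at 9 days (adjusted p = 0.0541). Without control array 2 the first and the last of these passed, with adjusted p = 0.0379 and 0.0405. So did the first without end of treatment array 1 (0.0394), and the last without end of treatment array 1 (0.0487), end of treatment array 3 (0.0374) or 2 day array 2 (0.0492). The last also passed with array weights (0.0444), with cyclic loess (0.0383) and without the genes of lowest mean (0.0407).

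The sensor gene dhx58 encodes LGP2, a relative of RIG-I that binds viral RNA and tunes its signalling, and it was raised at all 4 times. It read 5.25, 5.41 and 5.69 at the end of treatment, 6.21, 6.24 and 5.84 at 2 days, 5.41, 5.69 and 5.38 at 5 days, and 5.76, 5.70 and 5.58 at 9 days, against 4.64, 4.61 and 4.94 in control. All 12 arrays of treated fish lay above all control arrays, and the 2 day arrays lay above every other array. The rises were 0.72 ± 0.15 (1.65-fold, adjusted p = 0.00169) at the end of treatment, 1.37 ± 0.15 (2.58-fold, adjusted p = 1.67e-05) at 2 days, 0.76 ± 0.15 (1.69-fold, adjusted p = 0.00531) at 5 days and 0.95 ± 0.15 (1.93-fold, adjusted p = 0.00144) at 9 days. All 4 calls held in every alternative tried. Another cluster, annotated to dhx58 and nkiras2, had its highest mean at the end of treatment and is described below.

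Of the effectors, isg15 had the largest rise of the 8 members at 2, 5 and 9 days. ISG15 is a ubiquitin-like protein that is joined to other proteins in interferon-treated cells. Its values were 5.75, 6.14 and 6.59 at the end of treatment, 6.95, 6.85 and 6.74 at 2 days, 6.38, 6.22 and 5.74 at 5 days, and 6.68, 6.49 and 6.40 at 9 days, against 5.02, 5.48 and 5.43 in control. Again all 12 treated arrays lay above all 3 control arrays, and the 2 day arrays lay above the other 12. The rises were 0.85 ± 0.20 (1.81-fold, adjusted p = 0.0038) at the end of treatment, 1.54 ± 0.20 (2.91-fold, adjusted p = 7.27e-05) at 2 days, 0.81 ± 0.20 (1.75-fold, adjusted p = 0.0204) at 5 days and 1.22 ± 0.20 (2.32-fold, adjusted p = 0.00168) at 9 days. The call at 5 days was lost without control array 1 (adjusted p = 0.0965), 5 day array 1 (0.0832) or 5 day array 2 (0.0826), and over all clusters (0.0746).

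The gene rsad2 encodes viperin, an enzyme that makes a chain-terminating nucleotide from CTP. Its values were 5.24, 5.26 and 6.25 at the end of treatment, 6.54, 7.04 and 6.69 at 2 days, 6.07, 6.01 and 6.02 at 5 days, and 6.56, 5.71 and 5.61 at 9 days, against 5.75, 5.23 and 4.87 in control. Array 3 at the end of treatment and array 1 at 9 days stood well above the others of their groups. The rise at 2 days was 1.47 ± 0.28 (2.78-fold, adjusted p = 0.00225) and held in every alternative tried. Differences at the other times did not pass: 0.30 ± 0.28 at the end of treatment, 0.75 ± 0.28 at 5 days (adjusted p = 0.133) and 0.68 ± 0.28 at 9 days (adjusted p = 0.166). Without array 3 the first of these was -0.032.

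The GTPase gene mxa, whose mammalian relatives trap viral nucleocapsids, did not pass the threshold in any comparison. It read 3.92, 4.08 and 4.09 at the end of treatment, 5.16, 4.28 and 4.60 at 2 days, 4.06, 4.30 and 3.77 at 5 days, and 3.97, 4.78 and 3.92 at 9 days, against 4.16, 3.78 and 4.08 in control. The 2 day arrays lay just above the control arrays, and the other groups overlapped control. The difference at 2 days was 0.67 ± 0.24 (adjusted p = 0.0793), and it passed without 2 day array 2 (0.0393) or 9 day array 2 (0.0389). At the other times the differences were 0.02 ± 0.24, 0.04 ± 0.24 and 0.22 ± 0.24.

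The gene tap2a encodes a subunit of the transporter that carries peptides into the endoplasmic reticulum for loading on class I molecules, and it had the largest rise of the members at the end of treatment. Its values were 6.01, 6.12 and 6.69 at the end of treatment, 5.77, 6.02 and 5.93 at 2 days, 5.54, 5.41 and 5.24 at 5 days, and 6.12, 5.62 and 5.86 at 9 days, against 4.45, 4.99 and 5.06 in control. All treated arrays lay above the control arrays, and the 5 day arrays lay below those of the other treated groups. The rises were 1.44 ± 0.19 (2.71-fold, adjusted p = 3.08e-05) at the end of treatment, 1.07 ± 0.19 (2.10-fold, adjusted p = 0.00128) at 2 days and 1.03 ± 0.19 (2.04-fold, adjusted p = 0.00385) at 9 days. The difference of 0.56 ± 0.19 at 5 days did not pass (adjusted p = 0.0969). The 3 calls held in every alternative tried.

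**Figure D2:**
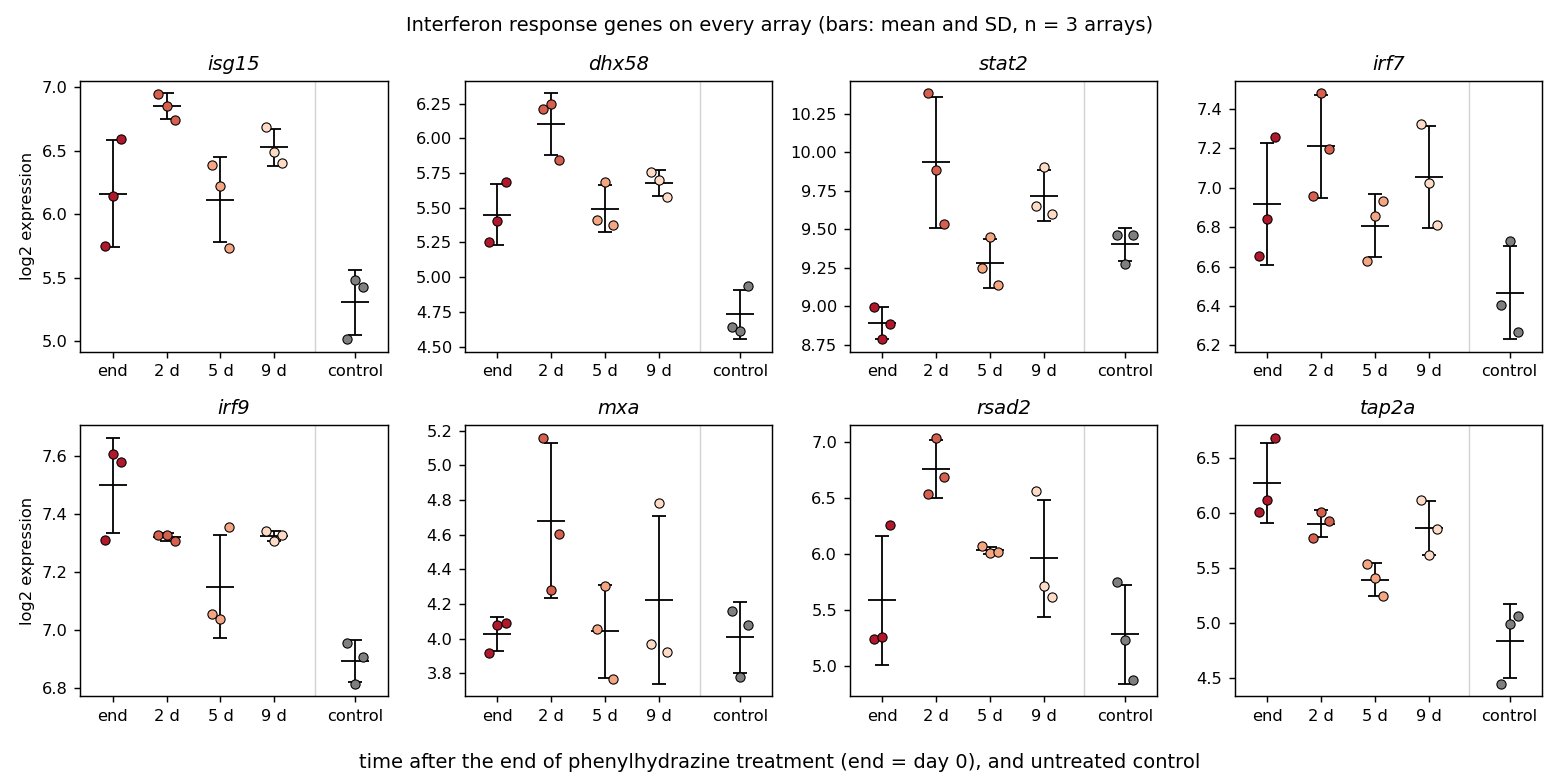
Log2 expression of each measured interferon response gene on all 15 arrays, with 1 panel a gene, the time after treatment and control on the horizontal axis, and bars for the mean and SD of 3 arrays. For isg15 and dhx58 the 2 day arrays lie above all others, for irf9 and tap2a the highest mean is at the end of treatment, and for stat2 the lowest is there.

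The order of the group means differed between members. The mean was highest at 2 days for isg15, dhx58, stat2, irf7, mxa and rsad2, and at the end of treatment for irf9 and tap2a. The ranges of the highest and the next group did not overlap for isg15, dhx58 and rsad2. They overlapped for stat2, irf7, irf9, mxa and tap2a, whose first places are within the spread of the arrays. Control had the lowest mean of the 5 groups for all members except stat2.

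Tested directly, 4 members were higher at 2 days than at the end of treatment, where 7.98% of all genes were called and 3.52% were called upward. These were stat2 by 1.05 ± 0.16, rsad2 by 1.17 ± 0.28 (adjusted p = 0.0148), dhx58 by 0.65 ± 0.15 (adjusted p = 0.0109) and isg15 by 0.69 ± 0.20 (adjusted p = 0.0398). The other differences were 0.29 ± 0.18 for irf7, 0.65 ± 0.24 for mxa, -0.18 ± 0.10 for irf9 and -0.37 ± 0.19 for tap2a, and none of these 4 passed. The members' median was 0.65, against -0.01 for all genes.

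Apart from stat2, each of these calls between the 2 times was lost when any 1 of several arrays was left out. Over all alternatives the differences stayed above 0, at 1.0 to 1.505 for rsad2, 0.552 to 0.779 for dhx58 and 0.48 to 0.901 for isg15. The rsad2 call was lost without end of treatment array 1 (adjusted p = 0.073), end of treatment array 2 (0.0774) or 2 day array 2 (0.0733), and over all clusters (0.0681). The dhx58 call was lost without end of treatment array 1 (0.0599), 2 day array 1 (0.0568) or 2 day array 2 (0.0577). The isg15 call was lost without end of treatment array 1, where the difference was 0.48 (0.191), end of treatment array 2 (0.106), 2 day array 1 (0.136), 2 day array 2 (0.101), 2 day array 3 (0.0635) or 9 day array 2 (0.0508). It was also lost without a variance trend (0.0586), over all clusters (0.137) and on only the 6 arrays compared (0.0528). The count of 4 became 1 without end of treatment array 1 or 2 day array 2, and 2 without end of treatment array 2 or 2 day array 1.

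Between 2 and 5 days all 8 members had negative differences, with a median of -0.62 against -0.01 for all genes, and 0 were called by limma, where 0.187% of all genes were. At an unadjusted p under 0.05 it was 7 of 8, with irf9 the exception, where 9.08% of all genes were under that value. The differences (5 minus 2 days) were -0.73 ± 0.20 for isg15 (adjusted p = 0.172), -0.61 ± 0.15 for dhx58 (adjusted p = 0.125), -0.66 ± 0.16 for stat2 (adjusted p = 0.112) and -0.72 ± 0.28 for rsad2 (adjusted p = 0.405). Without 2 day array 3 the stat2 difference was -0.857 and passed (adjusted p = 0.0275).

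Between 5 and 9 days 0 members were called, where 6.12% of all genes were. An unadjusted p under 0.05 was found for 2 of 8 members and for 18.7% of all genes, so the members' share is near that of all genes. The 2 were stat2 (0.44 ± 0.16) and tap2a (0.47 ± 0.19), both higher at 9 days. The stat2 difference passed without 2 day array 1 (adjusted p = 0.03) or 2 day array 3 (0.0458). Between 2 and 9 days 0 members were called, where 9.22% of all genes were. Here 2 of 8 members, dhx58 (-0.42 ± 0.15) and rsad2 (-0.795 ± 0.280), and 21.3% of all genes had an unadjusted p under 0.05, again similar shares. The rsad2 difference passed without 9 day array 1, at -1.095 (adjusted p = 0.0226), or without end of treatment array 3 (0.045). A p that misses the threshold does not show that the members stayed level.

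Other genes of the pathway were taken from lists by role, with 118 genes measured. Of these, 37 rose and 4 fell at the end of treatment, 30 rose and 0 fell at 2 days, 6 rose at 5 days and 17 rose at 9 days. Their median differences were 0.22, 0.21, 0.10 and 0.18, against 0.01 to 0.02 for all genes. Of all genes, 14.6% rose and 9.6% fell at the end of treatment, and 7.62%, 3.9% and 4.24% rose at the later times. The count at 2 days was 15 without control array 1, 18 without control array 3, 14 without 2 day array 1 and 18 without 2 day array 2, and 13 over all clusters. Calls over all 19260 genes fell in these fits too, from 1468 up and 800 down. They were 969 and 500, 1085 and 578, 1122 and 647, and 1139 and 508 in the same order. Of 75212 clusters, 1604 rose and 981 fell at 2 days. At 9 days the pathway count was 9 over all clusters, where 675 of the 75212 rose and 629 fell. Calls kept in every alternative were 30 of 41 at the end of treatment, 11 of 30 at 2 days, 3 of 6 at 5 days and 7 of 17 at 9 days. The pathway genes named below kept their calls in every alternative that tested them, except where a loss is given. That choice was made after the values were seen, as was the choice of cmpk2, b2m, and psmb9a and helz2b at the end of treatment. So was the choice of each value given at 5 or 9 days or between times.

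**Figure D3:**
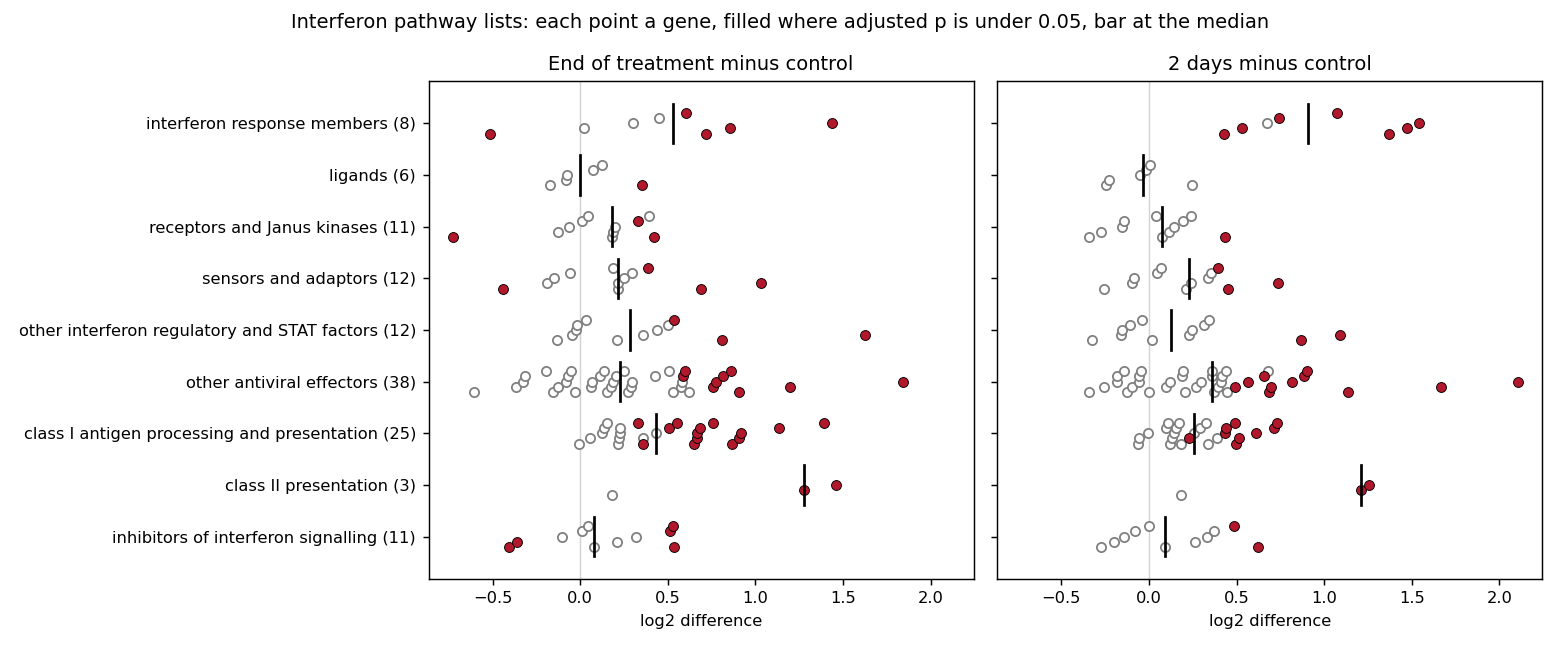
Log2 difference from control for each gene of the interferon lists, at the end of treatment (left) and 2 days later (right), with the list's median as a bar and its number of genes in brackets. Filled points passed the threshold: 14 of 25 class I genes did at the end of treatment and 9 at 2 days, and 1 and 0 of 6 ligand genes. Of all genes, 24.2% and 11.8% were called at these times.

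Of 6 ligand genes measured, ifnphi1 alone was called at the end of treatment, where 24.2% of all genes were called. None was called at the 3 later times. Array means of the ligand list ran from 3.26 to 3.52, below the lowest array median of 4.022. With signal over background unknown, the lack of calls does not show that these genes stayed level. The gene ifnphi1 encodes a type I interferon of fish. It read 3.74, 4.02 and 3.88 at the end of treatment, against 3.43, 3.52 and 3.64 in control, and the groups did not overlap. The rise of 0.35 ± 0.12 (adjusted p = 0.0439) was lost without control array 1 (0.147), control array 2 (0.0964), end of treatment array 2 (0.175) or end of treatment array 3 (0.0976), and over all clusters (0.0956), among others.

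At the end of treatment 14.6% of all genes rose and 9.6% fell, and 7.62% rose at 2 days. Of 11 receptor and Janus kinase genes, 2 rose and 1 fell at the end of treatment, and 1 rose at 2 days, shares near these. The one that fell was jak2a, a kinase of the interferon gamma and cytokine receptors. It read 6.53, 6.57 and 6.995 at the end of treatment, 7.83, 7.91 and 7.83 at 2 days, 7.78, 7.81 and 7.73 at 5 days, and 7.70, 7.65 and 7.61 at 9 days, against 7.20, 7.63 and 7.44 in control. The end of treatment arrays lay below all others. The fall was -0.72 ± 0.12 (adjusted p = 0.000274), and 2 days exceeded the end of treatment by 1.15 ± 0.12 (adjusted p = 2.94e-05). At 2 days the rise over control of 0.43 ± 0.12 (adjusted p = 0.0283) was lost in 6 of 25 alternatives. Among these were the fits without control array 1 (0.145), control array 3 (0.0641), 2 day array 1 (0.0594), 2 day array 2 (0.0907) or 2 day array 3 (0.0665). The receptor chain gene crfb4 rose by 0.33 ± 0.08 at the end of treatment.

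Of 12 sensor and adaptor genes, 3 rose and 1 fell at the end of treatment, 3 rose at 2 days, and none was called at 5 or 9 days. Of all genes, 14.6% rose and 9.6% fell at the end of treatment, and 7.62%, 3.9% and 4.24% rose at 2, 5 and 9 days. The endosomal receptor gene tlr8b rose by 1.03 ± 0.21 and the kinase gene ikbke, which activates interferon regulatory factors, by 0.69 ± 0.12 at the end of treatment. The rise of tlr3 (0.38 ± 0.11) and the fall of ticam1 (-0.44 ± 0.13) at that time were each lost in 3 of 25 alternatives. All 3 calls at 2 days were lost in some of the 25 alternatives: ifih1 in 5, tlr8b in 6 and ikbke in 14. Of 12 other interferon regulatory and STAT factors, 3 rose at the end of treatment, 2 at 2 days, none at 5 days and 2 at 9 days. The largest rise among them was that of irf1b, a paralogue of the IRF1 gene that interferon gamma induces in mammals. It read 9.66, 10.18 and 10.36 at the end of treatment, 9.77, 9.25 and 9.56 at 2 days, 8.74, 8.96 and 9.53 at 5 days, and 9.23, 9.10 and 9.92 at 9 days, against 8.06, 8.52 and 8.73 in control. All treated arrays lay above all control arrays, and the rise was 1.63 ± 0.24 at the end of treatment and 1.09 ± 0.24 at 2 days. The gene stat3, a target of interleukin 6 family cytokines, rose by 0.81 ± 0.09 at the end of treatment and was lower by -0.57 ± 0.09 at 2 days than then. At 9 days stat3 was again higher than control, by 0.434 (adjusted p = 0.00563).

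Antiviral effector genes were the largest list, with 38 measured. Of these, 9 rose at the end of treatment, 11 at 2 days, 2 at 5 days and 7 at 9 days, and 0 fell, with median differences of 0.23, 0.36, 0.13 and 0.26. Of all genes, 14.6%, 7.62%, 3.9% and 4.24% rose at these times, so the count at 5 days was near the share of all genes. Within the list, the largest rise at 2 days was that of ifi44a1, a relative of the interferon-induced IFI44 gene. It read 4.03, 4.96 and 5.49 at the end of treatment, 5.42, 5.05 and 4.78 at 2 days, 3.18, 3.13 and 3.60 at 5 days, and 3.43, 3.67 and 3.20 at 9 days, against 3.03, 2.64 and 3.27 in control. The first 2 groups lay above all arrays of the other 3, and the groups at 5 and 9 days overlapped control. All arrays of these 3 groups lay below the lowest array median of 4.022, and signal over background is unknown. The alternative without the genes of lowest mean did not test ifi44a1. The gene rose by 1.84 ± 0.29 at the end of treatment and by 2.10 ± 0.29 at 2 days, and was lower by -1.65 ± 0.29 at 9 days than at 2 days (adjusted p = 0.00155). At 5 days it was already lower than at 2 days, by -1.778 (adjusted p = 0.0176), a call lost in 5 of 24 alternatives.

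The helicase gene helz2b, a relative of the interferon-induced coactivator HELZ2, followed another order. Its values were 6.79, 7.22 and 7.29 at the end of treatment, 7.98, 7.92 and 7.81 at 2 days, 7.23, 6.84 and 6.89 at 5 days, and 7.06, 7.15 and 6.78 at 9 days, against 5.91, 6.40 and 6.40 in control. All treated arrays lay above all control arrays and the 2 day arrays above all others. It rose by 0.86 ± 0.16, 1.67 ± 0.16, 0.75 ± 0.16 and 0.76 ± 0.16 at the 4 times in order. It was higher at 2 days than at the end of treatment by 0.80 ± 0.16 (adjusted p = 0.00399), and lower at 9 days than at 2 days by -0.90 ± 0.16 (adjusted p = 0.00164). At 5 days it was already lower than at 2 days, by -0.915 (adjusted p = 0.024), a call lost in 7 of 25 alternatives. In that comparison 2 of the 118 pathway genes were called, both lower, and 0.187% of all genes were called.

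Among the other effectors, gbp2, a guanylate-binding GTPase gene, rose by 1.2 ± 0.17 at the end of treatment and 0.90 ± 0.17 at 2 days. The gene ifi35 rose by 0.91 ± 0.12 and 0.70 ± 0.12 at these times, and by 0.55 ± 0.12 at 9 days. The gene uba7, which in mammals encodes the enzyme that activates ISG15 for conjugation, rose by 0.78 ± 0.14 at the end of treatment. The nucleotide kinase gene cmpk2, which in mammals neighbours rsad2, rose by 1.14 ± 0.22 at 2 days (adjusted p = 0.00242).

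**Figure D4:**
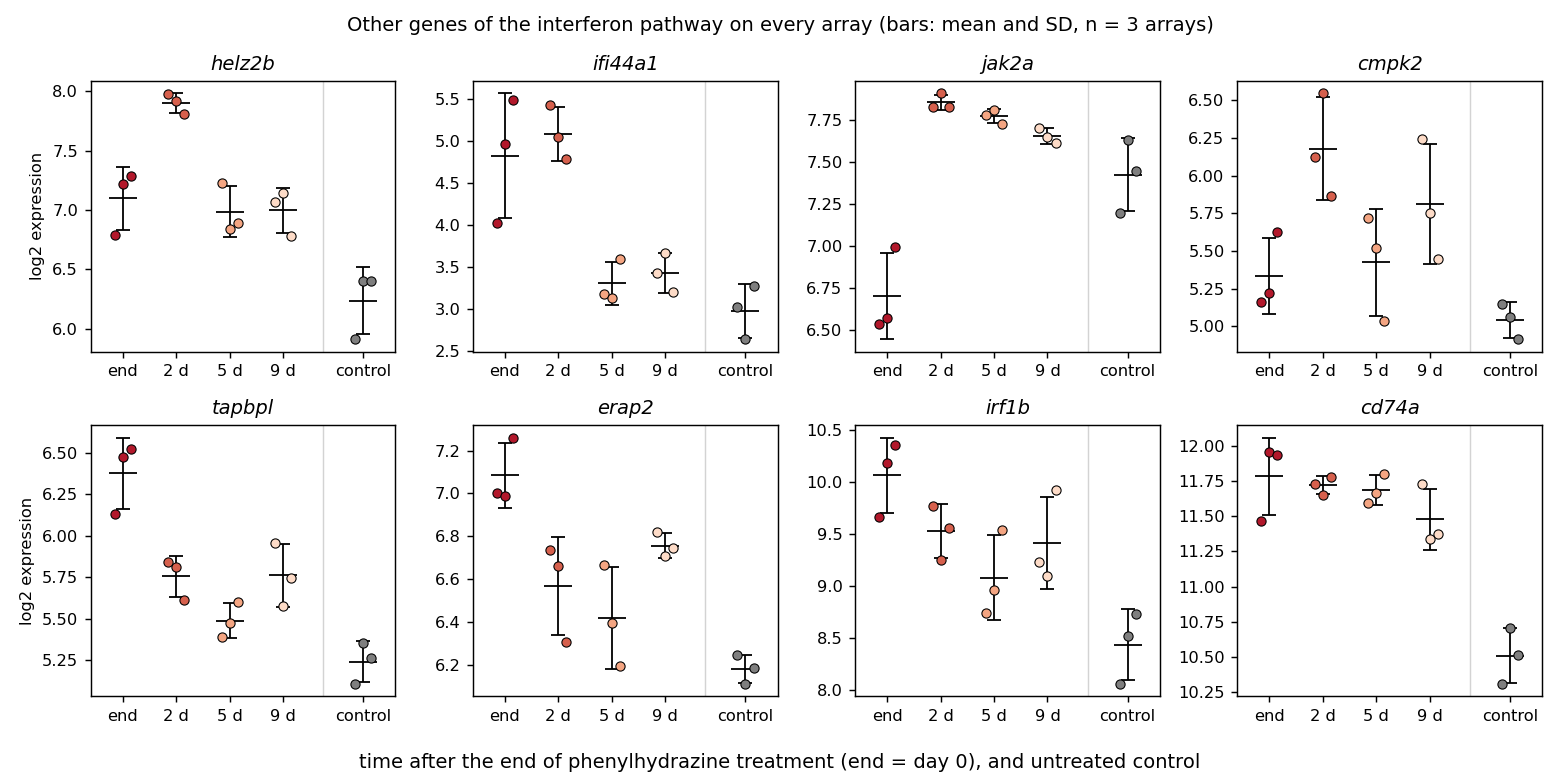
Log2 expression on all 15 arrays of 8 other genes of the interferon pathway, with bars for the mean and SD of 3 arrays and the time after treatment and control on the horizontal axis. helz2b and cmpk2 have their highest mean at 2 days, tapbpl, erap2 and irf1b at the end of treatment, and jak2a its lowest there.

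Class I antigen processing and presentation had the highest share called at the end of treatment among the other pathway lists of more than 3 genes. Of 25 genes, 14 rose and 0 fell then, 9 rose at 2 days, 1 at 5 days and 4 at 9 days, with medians of 0.43, 0.26, 0.11 and 0.23. Of all genes, 14.6%, 7.62%, 3.9% and 4.24% rose at these times, so the count at 5 days was near the share of all genes. Of the 9 calls at 2 days, only that of calr3b was kept in every alternative, and of the 4 at 9 days only that of b2m. The call at 5 days, of calr3b, was lost in 3 of 25 alternatives. Rises at the end of treatment included tapbpl, a relative of the peptide-loading chaperone tapasin (1.14 ± 0.13), erap2, an aminopeptidase that trims peptides (0.90 ± 0.13), and psme1, a proteasome activator subunit (0.865 ± 0.112). The immunoproteasome subunit gene psmb9a rose by 0.92 ± 0.18. The gene tapbpl was lower at 2 days than at the end of treatment by -0.62 ± 0.13 (adjusted p = 0.00725). The gene b2m, of the invariant class I light chain, rose by 0.357 at the end of treatment (adjusted p = 0.000757). That call was lost when averaging over clusters of 1 gene (0.0836). At 2 days b2m rose by 0.229 (adjusted p = 0.0355), a call lost in 9 of 25 alternatives. At 9 days it was raised by 0.325 ± 0.067.

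The invariant chain genes cd74a and cd74b, which belong to class II presentation and mark antigen-presenting cells, rose at all 4 times, while ciita, the regulator of class II genes and the other measured gene of that list, was not called. The values of cd74a were 11.47, 11.96 and 11.93 at the end of treatment, 11.73, 11.65 and 11.78 at 2 days, 11.60, 11.67 and 11.80 at 5 days, and 11.73, 11.34 and 11.37 at 9 days, against 10.31, 10.71 and 10.51 in control. All treated arrays lay above all control arrays. The rises of cd74a were 1.28 ± 0.13, 1.21 ± 0.13, 1.18 ± 0.13 and 0.97 ± 0.13 in order of time, and those of cd74b were 1.46 ± 0.14, 1.25 ± 0.14, 1.02 ± 0.14 and 1.03 ± 0.14.

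Of 11 inhibitors of interferon signalling, 3 rose and 2 fell at the end of treatment, 2 rose at 2 days, and 1 rose at 5 and at 9 days. Of all genes, 14.6% rose and 9.6% fell at the end of treatment, and 7.62%, 3.9% and 4.24% rose at 2, 5 and 9 days. The phosphatase gene ptpn11b rose by 0.54 ± 0.10 and its paralogue ptpn11a fell by 0.36 on the log2 scale at the end of treatment. The gene pias1b, whose mammalian relative inhibits STAT signalling, was lower by -0.41 ± 0.10 then. The gene usp18, whose product removes ISG15 from proteins, read 4.72, 4.75 and 5.05 at the end of treatment and 4.74, 4.84 and 4.81 at 2 days, against 4.06, 4.44 and 4.43 in control. Its rise of 0.53 ± 0.15 at the end of treatment was lost without control array 1 (adjusted p = 0.0783) or end of treatment array 3 (0.0748). The rise of 0.49 ± 0.15 at 2 days was lost in 7 of 25 alternatives. Among these were the fits without control array 1 (0.184), control array 3 (0.0519), 2 day array 1 (0.0684), 2 day array 2 (0.111) or 2 day array 3 (0.109).

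Markers of other cell types moved at the same times, and their part in the results was not tested. Of all genes, 14.6% rose and 9.6% fell at the end of treatment. Upward calls were 7.62%, 3.9% and 4.24% of all genes at 2, 5 and 9 days, and downward calls 4.15%, 2.47% and 3.3%. All 11 macrophage markers rose at the end of treatment, 8 at 2 days, 7 at 5 days and 8 at 9 days. The array mean of that list lay between 7.55 and 7.70, 7.20 and 7.58, 7.22 and 7.35, and 7.24 and 7.32 at these times, against 6.35 to 6.59 in control. Of 11 pan leukocyte markers, 11, 9, 8 and 8 rose, with array means of 7.49 to 7.68, 6.89 to 7.18, 6.96 to 7.07 and 6.99 to 7.16, against 6.23 to 6.64 in control. Both lists had their highest group mean at the end of treatment, where the members' median was lower than at 2 days. For the macrophage list the arrays of these 2 times overlapped. Tested directly, 1 of 11 macrophage markers was higher and 0 were lower at 2 days than at the end of treatment. Of the 11 pan leukocyte markers, 0 were higher and 5 lower. In that comparison 7.98% of all genes were called, 3.52% upward.

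Of 8 erythrocyte markers, 5 rose and 1 fell at the end of treatment, and 7, 6 and 5 rose at 2, 5 and 9 days. Their array means were 8.81 to 9.39 at the end of treatment, 9.97 to 10.25 at 2 days, 9.48 to 9.72 at 5 days and 8.98 to 9.18 at 9 days, against 7.80 to 8.78 in control. The erythrocyte list was highest at 2 days, as was the members' median. In the direct comparison, 6 of 8 erythrocyte markers were higher and 0 lower at 2 days than at the end of treatment. There 4 of 8 members were higher, and 3.52% of all genes were called upward. At 9 days 6 of the 8 markers were lower than at 2 days, where 0 members and 9.22% of all genes were called. From 5 to 9 days the median difference was -0.52 for these markers and 0.22 for the members. Lymphocyte and natural killer cell markers numbered 14. Of these, 2 rose at the end of treatment, near the 14.6% of all genes that rose then, and 0 were called later. Of 7 neutrophil markers 1 fell at the end of treatment, cpa5, from a control mean of 8.48 (SD 1.64) to 6.51. Of the 7, 5 had differences above 0 then, and 0 were called later. Of 5 dendritic cell markers 1 rose and 1 fell at the end of treatment and 2 fell at 2 days. Calls of single markers in these 2 lists do not stand for the cell type. Of 7 cardiomyocyte markers, 2 fell at the end of treatment, 2 at 2 days and 1 at 5 days.

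Downward calls were 9.6%, 4.15%, 2.47% and 3.3% of all genes at the 4 times. Of 7 epicardium and fibroblast markers, 3 fell at the end of treatment, 2 at 2 days, 1 at 5 days and 4 at 9 days, and 0 rose, with median differences of -0.60, -0.51, -0.34 and -0.50. Their array means were 7.88 to 8.04, 7.69 to 8.05, 7.97 to 8.10 and 7.54 to 8.07 in order of time, against 8.13 to 8.58 in control, so that this list was lower on every treated array. Of 4 endothelium markers, 2 rose and 1 fell at the end of treatment, 1 rose and 1 fell at 2 days and at 5 days, and 1 rose at 9 days. Array means of the endothelium list overlapped control at the end of treatment, 2 days and 9 days, and lay at 9.12 to 9.13 at 5 days, against 9.14 to 9.31 in control.

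**Figure D5:**
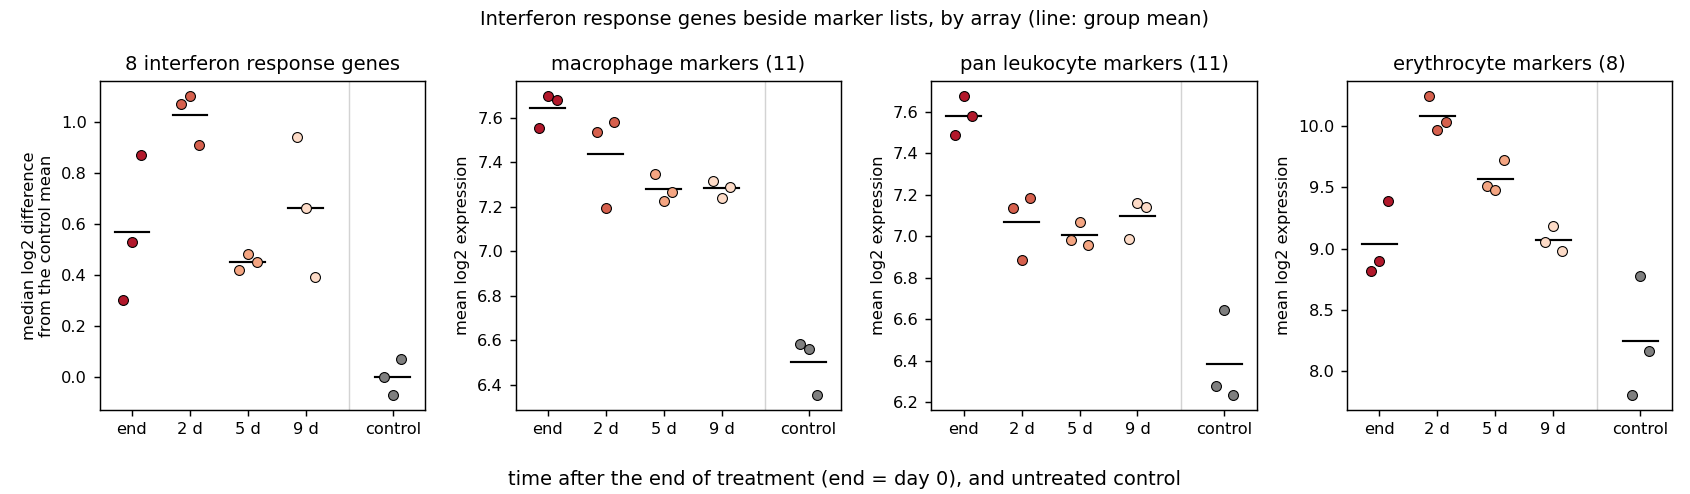
The members' median log2 difference from the control mean on each array, beside the array means of the macrophage, pan leukocyte and erythrocyte marker lists in log2 expression, with a line at the mean of 3 arrays. By group mean, the members' median and the erythrocyte markers are highest at 2 days, and the macrophage and pan leukocyte lists at the end of treatment. The macrophage arrays at the end of treatment overlap those at 2 days.

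Taken array by array, the median of the members' differences from the control mean was 0.30, 0.53 and 0.87 at the end of treatment, 1.07, 1.1 and 0.91 at 2 days, 0.42, 0.48 and 0.45 at 5 days, and 0.94, 0.66 and 0.39 at 9 days, against 0.00, -0.07 and 0.07 in control. The arrays at the end of treatment and at 9 days spread more widely than those at 2 and 5 days. Array 3 at the end of treatment was the highest of its group for isg15, dhx58, irf7, mxa, rsad2 and tap2a.

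Likeness to isg15 was measured as the root mean square distance between differences from the control mean over the 12 arrays of treated fish. Among the members dhx58 was nearest, at 0.241, and was also the nearest of all genes. It was followed by tap2a (0.431), rsad2 (0.468), irf7 (0.643), irf9 (0.786), mxa (0.926) and stat2 (1.102), where the median gene stood at 1.17. Genes outside all lists were ranked without those whose symbol is a placeholder for a clone or locus. The 5 nearest of the genes ranked were hemgn (0.265), atf5a (0.275), dusp4 (0.359), tfr2 (0.359) and rhag (0.359). Of these, hemgn, tfr2 and rhag encode proteins of red cell precursors or red cells, atf5a a transcription factor, and dusp4 a MAP kinase phosphatase. Their differences from control at 2 days were 1.71 ± 0.175 for hemgn, 1.61 ± 0.112 for atf5a, 1.102 ± 0.118 for dusp4, 1.31 ± 0.113 for tfr2 and 1.62 ± 0.15 for rhag.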

How the data were processed

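Each of 15 whole-transcript arrays was hybridised with labelled copies of 250 ng of total RNA from 3 pooled ventricles. What the authors deposited is log2 expression, computed by RMA (package oligo) per the submitters' processing notes. RMA corrects background, makes the arrays' distributions equal and summarises probes, so a shift common to all genes cannot be seen. Versions and probe set level are, like the genome build, not given in the sources used here, and no coordinates or sequences are printed. No detection values were used, so signal over background is unknown.

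An array annotation table held 21661 of 75212 clusters, 20806 with exactly 1 symbol, 855 with several and 53551 not in it. Symbols of 20323 clusters were matched by gene ID to a reference gene table of assembly GRCz12tu, and 1 was updated. Of 1365 genes with several clusters, the cluster with the highest mean was used, which left 19260 genes.

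A linear model with 1 mean for each group was fitted to all 15 arrays (limma 3.58.1, R 4.3.3), followed by eBayes with an intensity trend and 2-sided tests. The Benjamini-Hochberg adjustment ran over the 19260 genes, separately for 8 comparisons and the F test, with a threshold of 0.05. An exact permutation test of 3 against 3 arrays cannot go below 0.1, so each call depends on limma's variance model. The fit was also run on simulated data with independent normal noise. Such noise meets limma's assumptions, so that run does not test whether these arrays meet them. Python 3.11.15, pandas 2.3.3 and matplotlib 3.10.9 prepared the tables and figures.

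Alternatives were a minimum of 1.5-fold, array weights, a robust variance, no intensity trend, arrays centred on their median, cyclic loess, only the 12840 genes of highest mean, all clusters, averaging over clusters of 1 gene, fits of 6 arrays, a block for the replicate number, and each array left out in turn. The members and lists were chosen with earlier results of these data known. All measured members are named. Of each pathway list, up to 4 genes with the smallest adjusted p at the end of treatment and up to 4 at 2 days could be named. So could the 5 genes most like isg15 among those outside all lists and without a placeholder symbol.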

Additional observations from a re-analysis of the deposited data

Results flagged for a closer look

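For 4 members the effect against control differed between the end of treatment and 2 days by a test of the difference itself. In limma's fit, 2 days minus the end of treatment was 0.686 for isg15, 0.651 for dhx58, 1.046 for stat2 and 1.171 for rsad2. On the arrays, stat2 lay at 8.79 to 9.00 at the end of treatment and at 9.54 to 10.38 at 2 days, against 9.28 to 9.47 in control.

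Another pair of transcript clusters names a member together with other genes and stays out of the comparisons above. In the fit over all 75212 clusters, the one annotated to psmb13a, psmb8a and tap2a was higher at the end of treatment than in control by 0.623 ± 0.175 (adjusted p = 0.0378). The one annotated to dhx58 and nkiras2 was higher by 0.973 ± 0.273 (adjusted p = 0.0374). Neither was called against control at 2, 5 or 9 days, where dhx58 with its single symbol was called at all 3 times. The cluster of dhx58 and nkiras2 had means of 5.301 at the end of treatment, 5.083, 4.872 and 5.239 at 2, 5 and 9 days, and 4.328 in control. Its 2 days minus the end of treatment was -0.219 ± 0.273 (adjusted p = 0.884), where dhx58 with its single symbol had 0.651. Which of the annotated genes gave these signals was not tested.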

How the results depend on the processing

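Over 64 differences of members, 22 were called, of which 14 kept their call in every alternative and 8 lost it in at least 1, as given above, while 0 of the 22 changed sign. Of 42 that were not called, 6 passed in at least 1 alternative and 9 changed sign in at least 1. The counts of members called ranged, with 1 array left out, from 4 to 6 at the end of treatment, 5 to 8 at 2 days, 1 to 2 at 5 days and 3 to 5 at 9 days. They ranged from 1 to 4 for 2 days against the end of treatment, from 0 to 1 for each of the later comparisons between times, and from 6 to 7 for the F test. With a minimum of 1.5-fold, which was applied to counts only, they were 4, 5, 2 and 3 at the 4 times. Over all clusters the counts were 1 at 5 days and 2 for 2 days against the end of treatment. Of the 75212 clusters, 767 rose and 523 fell in the first of these comparisons, and 722 and 783 in the second. All changes of sign were of differences that had not passed: with 1 array left out, mxa ranged from -0.094 to 0.099 at the end of treatment, -0.095 to 0.173 at 5 days, -0.062 to 0.366 at 9 days and -0.097 to 0.331 for 9 against 5 days, and rsad2 from -0.032 to 0.534 at the end of treatment and -0.371 to 0.103 for 9 against 5 days. For 9 against 2 days stat2 ranged from -0.417 to 0.008, irf9 from -0.004 to 0.014 (-0.006 with arrays centred on their median) and tap2a from -0.168 to 0.08. The cause was not tested. Testing only the 12840 genes of highest mean leaves out mxa among the members, and ifi44a1 and ifnphi1 among the pathway genes named above. Calls of pathway genes numbered 33 to 43 at the end of treatment and 14 to 32 at 2 days with 1 array left out. With the replicate number as a block, the count for 2 days against the end of treatment was 3, without isg15 (adjusted p = 0.0608), and no other count of members changed. The labels do not say whether the replicate numbers pair the samples. Correlations of same-numbered arrays' deviations from their group means ran from -0.161 to 0.098 over 30 pairs. Over 60 pairs with different numbers they ran from -0.125 to 0.143. No shared effect of the number was seen, which cannot settle whether the design paired the samples. The number of arrays, and signal over background that is unknown here, limit what low genes such as mxa can show.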
